A study of Homo sapiens with 3 samples.

Results

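The comparison described here sets the RNA-seq library of CD105high cells against that of CD105neg cells, the outer 2 of the 3 samples of the series. The source was H1, a widely used line of human embryonic stem cells, with no genetic change named in the labels. Per the labels' protocols, all groups shared 2 days in activin A (40 ng/ml) with BMP4 (50 ng/ml), followed by 3 days in VEGF (40 ng/ml) with bFGF (50 ng/ml). The samples are labelled as day 4. CD31+CD34+ cells, which the labels call HEPs, were divided by their surface CD105 into CD105neg, CD105low and CD105high, and each group gave 1 library from 1 cell line. No difference below therefore has a replicate check or a p-value, and each is a difference between libraries.

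CD105 is endoglin, a co-receptor on endothelial cells that passes BMP9, BMP10 and TGF-beta signals to the receptor ALK1. In the embryo, early blood cells arise from haemogenic endothelium, flat cells of vessel walls that switch off endothelial genes as they round up and switch on blood genes. CD31 and CD34 are carried by endothelium and by early blood progenitors alike, so a CD31+CD34+ gate can hold both.

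Each deposited table gave 1 value for each of 18345 genes, treated here as FPKM, a level scaled by transcript length and by sequencing depth. A gene was counted if it reached 10 FPKM in either outer library, which 5801 did. Differences are log2 of the value + 1 in CD105high minus the same in CD105neg, centred on the median counted gene, which lay at -0.10 before centring. Triples of levels are always in the order CD105neg, CD105low, CD105high. At the minimum, TASP1 was just inside with 10.001 FPKM in CD105neg, and TBC1D9B was just outside with 9.996 FPKM. The absolute number of reads is unknown, so no counting interval is given. Because of the added 1, differences of genes near or below 1 FPKM are understated.

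The label held in the data. ENG, which encodes CD105, stood at 2.12, 8.56 and 13.8 FPKM, the order of the sort, with a difference of 2.35. PECAM1, which encodes CD31, stood at 29.9, 41.9 and 50.1 FPKM (difference 0.83), so it was present in both outer libraries. CD34 stood at 20.99, 39.2 and 43.2 FPKM (difference 1.11). The value column of the CD105neg table has a name that reads as CD105 positive. The sample's label was followed, and ENG had its lowest level in that table. The other given markers also differed between the outer libraries. LPL, lipoprotein lipase, which frees fatty acids from lipoproteins at vessel walls, stood at 5.81, 57.8 and 135 FPKM (difference 4.43). FCN3, a ficolin of the lectin pathway of complement, stood at 17.7, 142 and 314 FPKM (difference 4.18). CD93, a lectin-like receptor of endothelium, stood at 11.4, 42.9 and 79.6 FPKM (difference 2.80). RHAG, of the Rh complex of red cells, went the other way, at 26.3, 10.9 and 5.71 FPKM (difference -1.92).

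Endothelial genes lay mostly above the median gene in CD105high and erythroid genes below it, and most other genes differed little. Fewer cells of a type and less RNA per cell cannot be told apart in such bulk libraries. Of the 5801 counted genes, 185 (3.19%) were higher in CD105high by 2-fold or more, and 45 (0.776%) were lower by as much. At least 1.5-fold, the counts were 471 (8.12%) and 222 (3.83%), and the remaining 5108 genes, 88.1%, lay within 1.5-fold. Without centring the 2-fold split was 139 higher and 65 lower, and the 1.5-fold split turned to 364 higher and 378 lower. The middle 90% of the differences ran from -0.53 to 0.79, so the upper side reached farther from the median. Beyond 4-fold there were 35 higher and 5 lower genes. At the 2-fold limit, LIMD2 was just inside at 1.001 and RHOB just outside at 0.998 among the higher genes. Among the lower ones CLNS1A was just inside at -1.003 and SNURF just outside at -0.989. Many of the higher genes were low in CD105neg: 100 of the 185 were below 10 FPKM there and passed the minimum through CD105high, as 22 of the 45 did through CD105neg. The 185 genes together made up 1.19% of the summed level in CD105neg, 2.46% in CD105low and 3.49% in CD105high. For the 45 lower genes the shares were 0.817%, 0.560% and 0.285%. Where a gene passed the minimum through only CD105high or only CD105neg, its direction was largely set by that, also in the lists below. For the 1.5-fold counts of those lists, the shares over all counted genes are 8.12% higher and 3.83% lower.

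**Figure D1:**
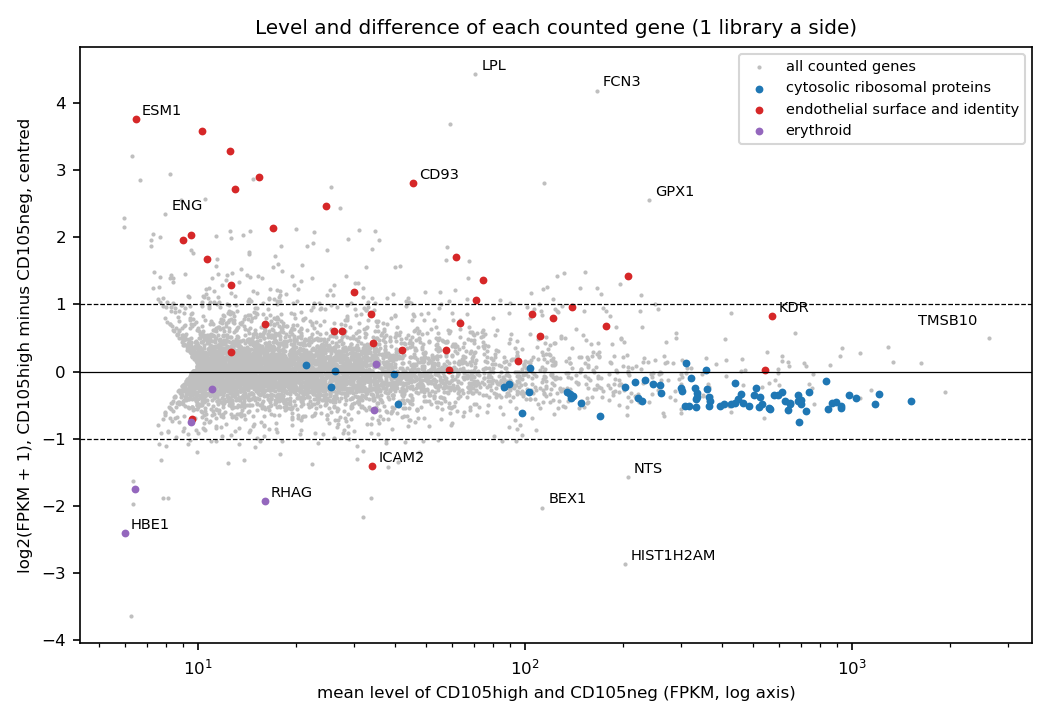
Each point is a counted gene, with its mean level in CD105high and CD105neg in FPKM on a log axis and its centred log2 difference; dashed lines mark 2-fold. Endothelial genes (red) reach a difference of 3.75 at ESM1, ribosomal protein genes (blue) lie in a band around -0.39, and the unlabelled lowest point is a clone-named gene.

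Beyond the 12 genes with the highest difference, ranks 13 to 30 held endothelial receptors, enzymes and ligands. PCDH12, a protocadherin of endothelial junctions, stood at 2.93, 13.3 and 22.95 FPKM (difference 2.71). ADGRL4, an adhesion receptor of growing vessels, stood at 7.36, 27.8 and 42.1 FPKM (difference 2.47). SEMA3G, a secreted semaphorin of arterial endothelium, stood at 8.35, 25.7 and 46.1 FPKM (difference 2.44). In each of these 3 the CD105low library lay between the outer libraries. TNFSF10, the death ligand TRAIL, stood at 6.35, 26.6 and 44.8 FPKM (difference 2.74). BMP6, a BMP ligand, stood at 5.20, 14.6 and 23.7 FPKM (difference 2.10), and RAMP2, the partner of the adrenomedullin receptor, at 6.08, 17.01 and 27.98 FPKM (difference 2.14). KCNJ2, an inward rectifier potassium channel, stood at 1.70, 5.76 and 10.2 FPKM (difference 2.16). GPX1, a glutathione peroxidase, and SELENOP, the selenium carrier of plasma, are both selenoproteins. GPX1 was the most abundant gene of the 30, at 73.9, 323 and 406 FPKM (difference 2.55). SELENOP stood at 13.5, 30.5 and 56.1 FPKM (difference 2.08). Their values are uncertain, since 25% and 47.1% of their sampled transcript sequence also occurs in other genes. The same holds for RAMP2 (23.8%) and for HIST2H4A, a histone H4 gene (100%), which was highest in CD105low at 29.8, 206 and 199 FPKM (difference 2.80). RGCC, which encodes a regulator of cell cycle progression, stood at 1.5, 2.88 and 10.4 FPKM (difference 2.29), with CD105low near CD105neg. GAP43, best known from growing axons, stood at 2.53, 10.05 and 18.5 FPKM (difference 2.57).

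Ranks 13 to 30 from the bottom mixed enzymes, trafficking proteins and receptors. ENO2, an enolase typical of neurons, stood at 60.4, 39.1 and 21.6 FPKM (difference -1.34). ODC1, the first enzyme of polyamine synthesis, stood at 45.01, 24.3 and 16.4 FPKM (difference -1.30). These were in steps across the sort, as were FGFR3, a fibroblast growth factor receptor, at 13.3, 9.28 and 5.33 FPKM (difference -1.07) and the metallothionein gene MT2A at 10.9, 6.98 and 4.26 FPKM (difference -1.08). ICAM2, an adhesion molecule of endothelium and leukocytes, stood at 50.9, 26.8 and 17.2 FPKM (difference -1.41), with 39.4% of its sampled sequence shared. A few genes did not follow the sort. RAB11A, a GTPase of recycling endosomes, stood at 67.9, 79.7 and 27.03 FPKM (difference -1.19), so only CD105high was low. GMFB had the same shape, at 33.5, 38.2 and 11.3 FPKM (difference -1.38), as did the lowest named gene of all, the histone gene HIST1H2AM, at 359, 390.5 and 45.2 FPKM (difference -2.86) with 77.8% shared. IRAK1, a kinase of interleukin-1 signalling, was lowest in CD105low, at 45.7, 14.7 and 18.2 FPKM (difference -1.18). CD105low lay between the outer libraries for 28 of the 30 highest and 25 of the 30 lowest, beside 57.1% of all counted genes. Genes chosen for a wide gap between the outer libraries leave little room outside it, so this is a description only.

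**Figure D2:**
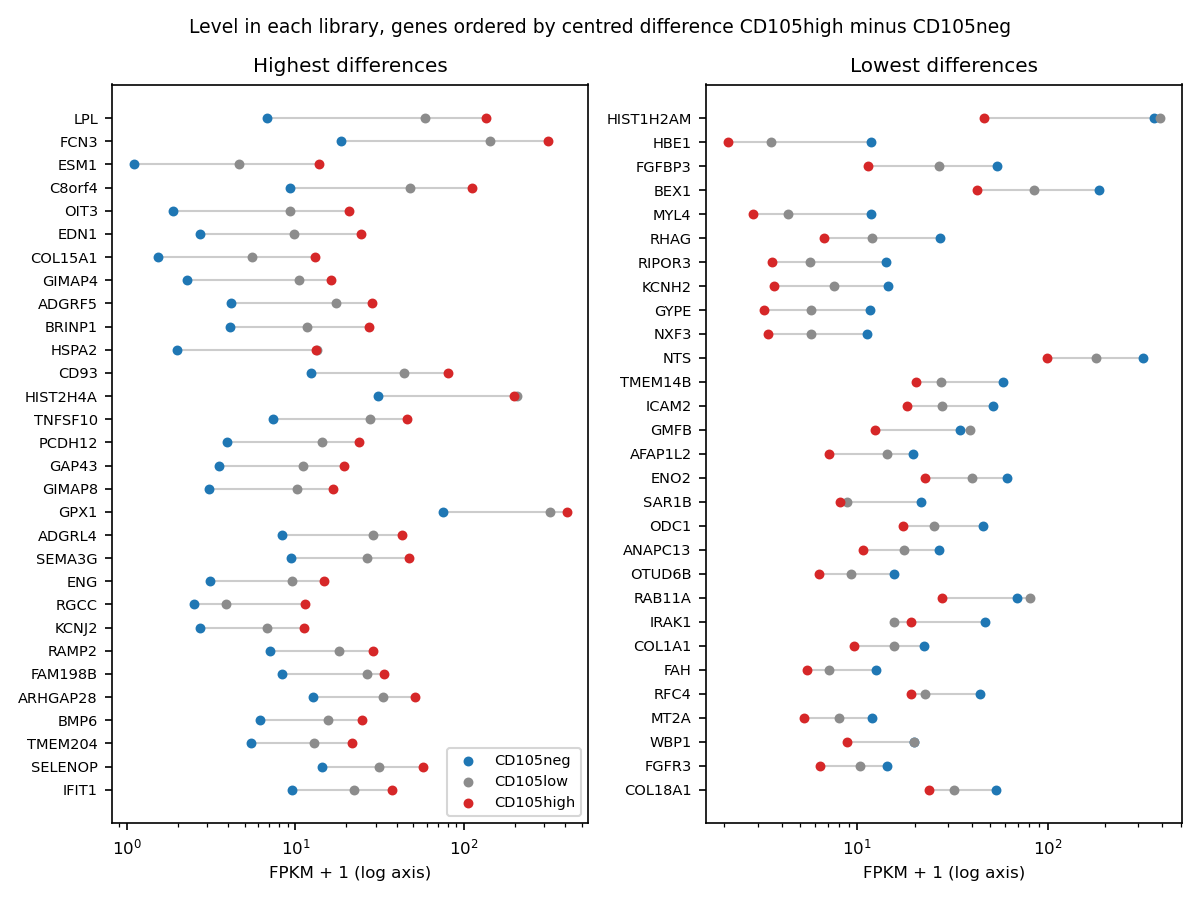
Level in each library, as FPKM + 1 on a log axis, of the 30 genes with the highest (left) and 29 of the 30 with the lowest (right) centred difference. Grey CD105low points lie between blue CD105neg and red CD105high for 28 genes on the left and 24 on the right.

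Promoter sequence is shown for 6 genes from both ends of this order, since they hold the core letters of factor families known in endothelium and in red cells. The letters AGGAAG, searched on both strands, hold the core of sites for ETS factors, which bind at many endothelial genes. The letters AGATAA, also searched on both strands and with no overlap between both motifs in the stretches shown, belong to sites for GATA factors, which act in blood cells and in endothelium. A match on the other strand shows as the reverse complement. The stretches are the 120 bases before the annotated start, from RefSeq on GRCh38.p14, 5′ to 3′ on the gene's strand, with the searched letters in capitals. They lie at chr9:127854659-127854778 on the minus strand for ENG, chr6:46954940-46955059 on the minus strand for ADGRF5, chr7:150567270-150567389 on the plus strand for GIMAP4 and chr15:40929220-40929339 on the plus strand for DLL4. Those of the lower genes lie at chr12:85874175-85874294 on the plus strand for NTS and chr4:143905560-143905679 on the minus strand for GYPE.
ENG: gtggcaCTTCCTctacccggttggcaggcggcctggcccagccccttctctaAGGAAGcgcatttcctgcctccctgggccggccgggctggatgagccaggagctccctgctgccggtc
ADGRF5: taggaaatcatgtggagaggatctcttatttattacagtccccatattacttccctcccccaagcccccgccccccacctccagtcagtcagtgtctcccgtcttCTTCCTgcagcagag
GIMAP4: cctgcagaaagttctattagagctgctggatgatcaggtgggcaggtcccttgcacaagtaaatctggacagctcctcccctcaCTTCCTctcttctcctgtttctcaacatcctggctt
DLL4: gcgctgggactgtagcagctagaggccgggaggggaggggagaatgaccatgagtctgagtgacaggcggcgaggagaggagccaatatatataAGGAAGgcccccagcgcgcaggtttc
NTS: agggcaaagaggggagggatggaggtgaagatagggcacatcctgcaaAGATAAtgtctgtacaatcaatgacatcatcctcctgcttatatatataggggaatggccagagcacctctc
GYPE: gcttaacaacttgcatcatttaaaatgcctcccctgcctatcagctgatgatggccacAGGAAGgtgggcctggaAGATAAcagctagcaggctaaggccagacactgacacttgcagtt
ENG held the ETS letters at positions -114 and -68, ADGRF5 at -15, GIMAP4 at -36, DLL4 at -26 and GYPE at -62, where -1 is the base before the start. The GATA letters began at -72 in NTS and -45 in GYPE. Over windows from 250 bases before to 50 after the start, 4841 of the 5801 counted genes had an entry. The ETS letters were in 38.0% of 142 windows of 2-fold higher genes and 32.3% of 31 windows of 2-fold lower genes, beside 32.6% of all. The GATA letters were in 7.75%, 12.9% and 4.50%, which is 11, 4 and 218 windows. A match is a description of letters and not a binding site.

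Most receptors and identity genes of endothelium were higher in CD105high. Of the 50 genes on that list, 37 were counted; 27 were at least 1.5-fold higher, 17 of them at least 2-fold, and 2 were at least 1.5-fold lower, with a median of 0.86. The median of all counted genes is 0 by construction. With 10 FPKM required in both libraries 25 members remained, and the list's median was 0.70. The others passed the minimum through only CD105high, as did ESM1, THBD, VWF and CLEC14A, or only CD105neg, as did TMEM88. Their part of the counts carries no weight of its own. The list was written with earlier results of these data known. The pattern was uneven. The VEGF receptor gene KDR, the most abundant member in CD105high, stood at 430.5, 644 and 713 FPKM (difference 0.83), and the angiopoietin receptor pair at 92.8, 137 and 151 FPKM (difference 0.80) for TEK and 77.9, 112 and 132 FPKM (difference 0.86) for TIE1. CDH5, VE-cadherin, which joins endothelial cells, stood at 48.01, 79.6 and 94.1 FPKM (difference 1.06). By contrast EGFL7, a secreted vascular factor, stood at 558, 629.7 and 528 FPKM (difference 0.02), and the scavenger receptor gene STAB1 at 60.4, 65.1 and 56.9 FPKM (difference 0.02), both close to the median gene. CLDN5, a claudin of tight endothelial barriers, was near 1 FPKM in all 3 libraries, at 0.677, 1.31 and 1.05 FPKM. THBD, thrombomodulin, stood at 3.33, 8.79 and 14.7 FPKM (difference 1.96), VWF, von Willebrand factor, at 4.89, 10.9 and 16.5 FPKM (difference 1.67), and CLEC14A, a relative of CD93, at 3.39, 9.85 and 15.7 FPKM (difference 2.03). TMEM88 was the other member besides ICAM2 that was lower, at 12.5, 10.7 and 6.71 FPKM (difference -0.71).

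Notch and arterial genes were mostly higher, with members of each role apart. Of 12 counted members, 7 were at least 1.5-fold higher and 1 was lower (median 1.03). Among the 7, DLL4, GJA4, SEMA3G and EFNB2 passed the minimum through CD105high alone. The lower member, GJA5, passed it through CD105neg alone. The part of these genes in the counts carries no weight of its own. The ligand gene DLL4, which marks arterial and tip cells, stood at 4.18, 11.98 and 18.5 FPKM (difference 2.02), while the ligand gene JAG1 stood at 13.1, 15.97 and 14.9 FPKM (difference 0.28). Receptors divided too. NOTCH4, the endothelial receptor, was below 10 FPKM at 0.816, 1.72 and 3.48 FPKM (difference 1.40), and NOTCH1 stood at 32.2, 38.6 and 33.4 FPKM (difference 0.15). Fringe enzymes add sugars to Notch and tune its choice of ligand. LFNG stood at 15.98, 25.5 and 33.8 FPKM (difference 1.14) and MFNG at 11.1, 19.2 and 22.999 FPKM (difference 1.09), while RFNG was below 10 FPKM at 4.81, 5.04 and 3.49 FPKM (difference -0.27). Connexins went in opposite directions. GJA4 stood at 6.09, 10.7 and 16.99 FPKM (difference 1.45) and GJA5 at 17.3, 11.2 and 9.77 FPKM (difference -0.66), where 16.5% of the sampled sequence of GJA5 is shared. In the list of veins and lymphatics, 2 of 5 counted members were at least 1.5-fold higher and none was lower. PLVAP, of the diaphragms of vessel pores, stood at 118, 246 and 296 FPKM (difference 1.42), and FLT4, the receptor for VEGFC, at 18.9, 35.98 and 41.3 FPKM (difference 1.19).

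Of 6 counted members of the VEGF list, 4 were at least 1.5-fold higher, all of them receptors, and none was lower. FLT1 stood at 142, 198 and 211 FPKM (difference 0.67), NRP1, a co-receptor, at 38.4, 74.4 and 95.4 FPKM (difference 1.40), and NRP2, which did not reach 1.5-fold, at 170.4, 217 and 223 FPKM (difference 0.49). Of the ligand genes, PGF stood at 13.7, 10.8 and 8.31 FPKM (difference -0.55), VEGFB at 9.53, 7.84 and 4.61 FPKM (difference -0.80) and VEGFA at 6.17, 6.998 and 4.93 FPKM (difference -0.17). VEGFB was the only one of these 3 beyond 1.5-fold, and it was below 10 FPKM in each library. The ligand gene VEGFD was below 1 FPKM, at 0.198, 0.391 and 0.324 FPKM (difference 0.25). VEGF protein was added to the culture of all groups. In the list of the TGF-beta and BMP pathway, 8 of 16 counted members were at least 1.5-fold higher and none was lower (median 0.51). The 8 include ENG, whose direction was set by the sort. ENG, BMP6, BMPR2 and TGFBR2 passed the minimum through CD105high alone, so their part of the count carries no weight of its own. Type II receptors differed among themselves. BMPR2 stood at 4.60, 9.34 and 12.1 FPKM (difference 1.33), TGFBR2 at 7.89, 11.2 and 13.1 FPKM (difference 0.77) and ACVR2B at 23.2, 23.7 and 21.1 FPKM (difference -0.03), the last close to the median gene. ACVRL1, the type I receptor ALK1 that works with endoglin, stood at 56.4, 88.9 and 111 FPKM (difference 1.07), against 10.03, 12.04 and 11.3 FPKM (difference 0.26) for the type I receptor gene BMPR1A. SKIL, a corepressor of SMAD proteins that TGF-beta signals induce, stood at 17.8, 32.96 and 42.7 FPKM (difference 1.32). Among BMP ligands, BMP6 was beyond 2-fold, whereas BMP4 was highest in CD105low, at 8.60, 12.7 and 5.49 FPKM (difference -0.46). BMPER, a secreted binder of BMPs in endothelium, stood at 54.3, 52.7 and 40.2 FPKM (difference -0.32). Of the 14 members of the list from 1 to below 10 FPKM, 3 were at least 1.5-fold higher and 2 lower, and with them included the median came to 0.29.

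Vessel matrix genes went both ways: 5 of 15 counted members were at least 1.5-fold higher and 2 lower (median 0.24). Over all counted genes the shares were 8.12% and 3.83%. COL15A1, 1 of the 5, passed the minimum through CD105high alone, and LAMA5, 1 of the 2, through CD105neg alone. The basement membrane collagens were higher, with COL4A1 at 118, 179 and 273 FPKM (difference 1.31) and COL4A2, its partner in the same trimer, at 111, 162 and 231 FPKM (difference 1.15). HSPG2, the proteoglycan perlecan, stood at 19.6, 36.1 and 44.5 FPKM (difference 1.24). The related collagens COL15A1 and COL18A1, both of which release anti-angiogenic fragments, were apart in opposite directions. COL15A1 stood at 0.519, 4.56 and 12.05 FPKM (difference 3.21) and COL18A1 at 52.3, 31.1 and 22.8 FPKM (difference -1.06), with 18.3% of the sampled sequence of COL18A1 shared. Laminin chains also differed, with LAMA5 at 13.98, 8.30 and 6.82 FPKM (difference -0.83) and LAMB1 at 61.3, 62.4 and 59.2 FPKM (difference 0.05). Among fibrillar matrix genes, COL1A1 stood at 21.4, 14.6 and 8.57 FPKM (difference -1.12) and COL3A1 at 14.1, 11.03 and 6.79 FPKM (difference -0.86), while COL5A2 stood at 81.8, 133 and 162 FPKM (difference 1.08) and VCAN, the proteoglycan versican, at 11.9, 19.7 and 23.9 FPKM (difference 1.06). Of 7 counted integrin chains, 3 were at least 1.5-fold higher and none lower, with ITGA9 at 39.8, 64.96 and 77.6 FPKM (difference 1.05) and ITGA5, of the fibronectin receptor, at 84.3, 123 and 142 FPKM (difference 0.84). The other one, ITGA10, passed the minimum through CD105high alone. Of 10 integrin chains from 1 to below 10 FPKM, 1 was higher and 3 were lower by as much, and with no minimum the median of the list was -0.05, against 0.52.

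LPL and FCN3 had few companions in their pathways. Of 9 counted genes of lipid uptake, LPL and LIPA, a lysosomal lipase, were at least 1.5-fold higher, and none was lower. LIPA stood at 13.7, 17.7 and 22.2 FPKM (difference 0.76), while LPL passed the minimum through CD105high alone. GPIHBP1, which anchors LPL at the vessel wall, was at or near 0, at 0, 0.0052 and 0.033 FPKM, and FABP4, a fatty acid carrier, was at 0 in all 3 libraries. Of 20 complement genes 4 were counted, and besides FCN3 only the inhibitor gene SERPING1 reached 1.5-fold. It stood at 8.14, 10.2 and 11.99 FPKM (difference 0.61), so it passed through CD105high alone. The other ficolin genes were at or near 0, with FCN1 at 0, 0 and 0.0029 FPKM and FCN2 at 0 in each library. In the endothelin and adrenomedullin systems, EDN1, the precursor of endothelin-1, stood at 1.69, 8.77 and 23.5 FPKM (difference 3.29), whereas the receptor gene EDNRA was below 1 FPKM at 0.504, 0.406 and 0.401 FPKM. NPR1, the receptor for atrial natriuretic peptide, stood at 11.8, 22.6 and 25.5 FPKM (difference 1.15). NTS, which encodes the neuropeptide neurotensin, was abundant and lower at each step, at 314, 179 and 98.3 FPKM (difference -1.56). GIMAP GTPases form a gene cluster known from lymphocytes and also expressed in endothelium, and those that reached 1 FPKM lay above the median gene. GIMAP4 stood at 1.26, 9.53 and 15.2 FPKM (difference 2.94) and GIMAP8 at 2.05, 9.25 and 15.7 FPKM (difference 2.55). These 2 were the counted members, and both passed the minimum through CD105high alone. GIMAP6 stood at 1.09, 2.98 and 3.90 FPKM (difference 1.33), GIMAP5 at 1.19, 2.20 and 2.80 FPKM (difference 0.90), and the other 3 were below 1 FPKM.

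**Figure D3:**
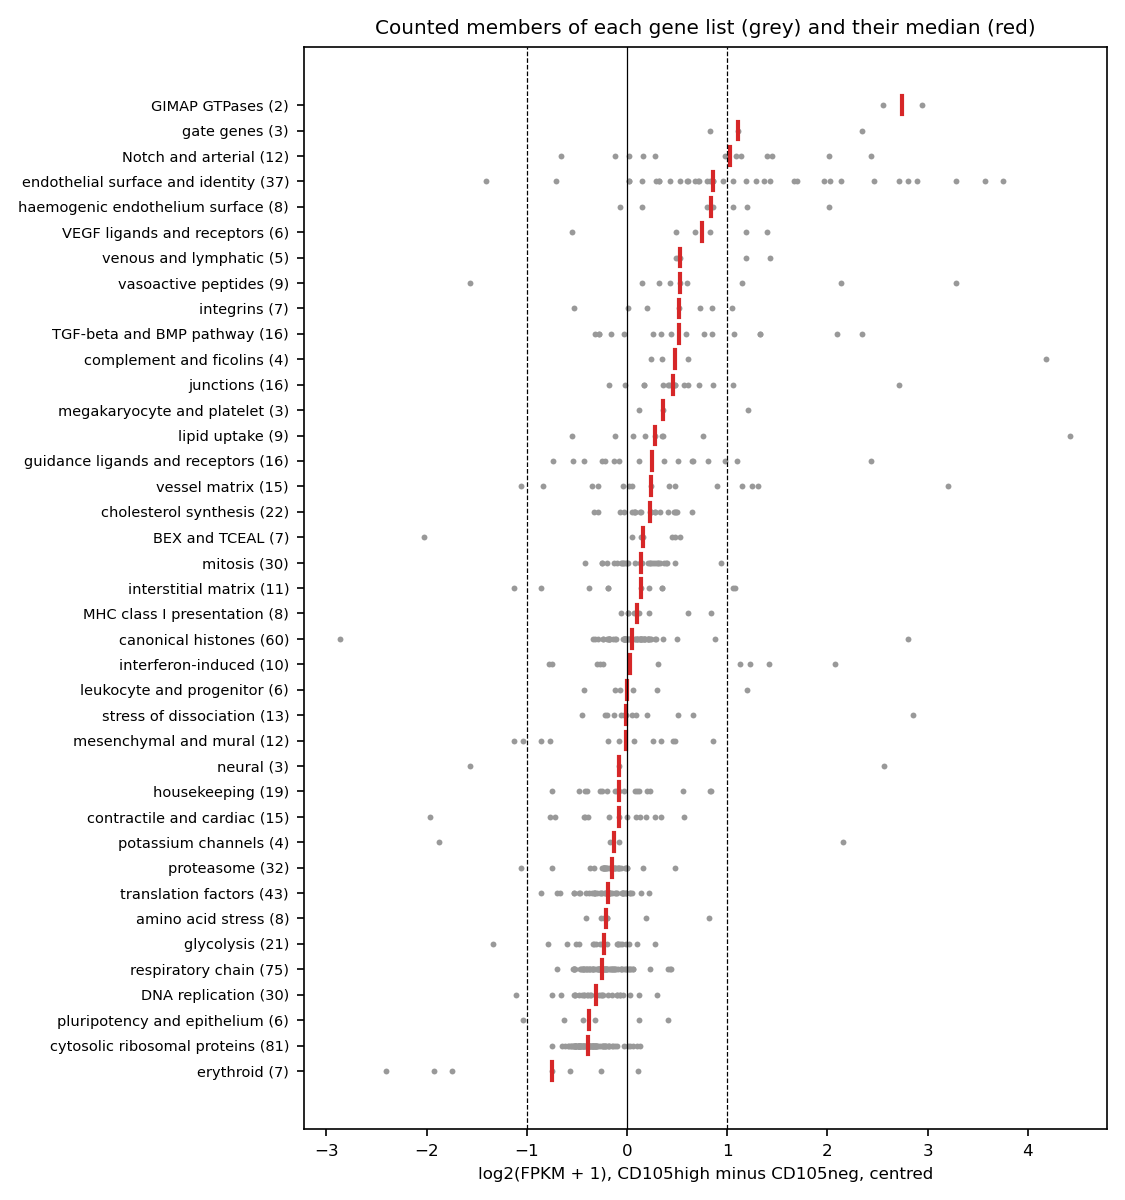
Centred log2 differences of the counted members of each gene list (grey points, number in parentheses) and the list's median (red bar), sorted by median; dashed lines mark 2-fold. Medians run from -0.75 for erythroid genes to 2.75 for the GIMAP GTPases, which have 2 counted members, and lists share members.

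Erythroid genes were low in level, and those beyond 1.5-fold were all lower in CD105high. Of 32 erythroid genes, 7 were counted, 12 reached from 1 to below 10 FPKM and 13 stayed below 1 FPKM. Among the 7, 4 were at least 1.5-fold lower and none higher. All 4 (RHAG, HBE1, GYPE and TFRC) passed the minimum through CD105neg alone, so their count carries no weight of its own, and neither of the 2 members at 10 FPKM in both libraries differed by 1.5-fold. Among the 12, 9 were at least 1.5-fold lower and none higher, while of all 5480 genes in that range 4.82% were lower and 7.23% higher by that much. GYPE, a glycophorin gene, stood at 10.6, 4.72 and 2.22 FPKM (difference -1.75) and GYPB at 8.92, 3.72 and 1.38 FPKM (difference -1.96). Reads of these near copies may have been divided between them, although 0% of the sampled sequence of GYPE was shared. GYPC, which is not related to them and is made in many cells, stood at 35.1, 36.3 and 35.2 FPKM (difference 0.11). KEL, the Kell antigen, stood at 6.87, 5.80 and 2.35 FPKM (difference -1.13) and ANK1, the ankyrin of the red cell skeleton, at 3.15, 2.01 and 1.25 FPKM (difference -0.78). The beta-like globin genes given here are embryonic or fetal. Of other globin genes, HBQ1 stood at 2.19, 1.30 and 0.446 FPKM (difference -1.04), and HBZ was at or near 0, at 0.052, 0 and 0 FPKM. HBE1, the embryonic beta-like chain, stood at 10.9, 2.504 and 1.09 FPKM (difference -2.40), HBG2 at 8.10, 1.16 and 1.27 FPKM (difference -1.90) and HBG1 at 3.29, 0.569 and 0.291 FPKM (difference -1.63), with 81.8%, 41.2% and 30.6%, in this order, of their sampled pieces also found elsewhere. ALAS2, the first enzyme of haem synthesis in red cells, stood at 1.02, 0.212 and 0.015 FPKM (difference -0.89). TFRC, the receptor that brings in iron, stood at 12.6, 10.6 and 6.52 FPKM (difference -0.75). EPOR, the erythropoietin receptor gene, did not follow, at 7.19, 9.45 and 8.82 FPKM (difference 0.36).

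Megakaryocyte genes that reached 10 FPKM were fewer than erythroid ones, and 6 leukocyte and progenitor genes were counted. Of 19 megakaryocyte and platelet genes 3 were counted, of which CD9, a tetraspanin also found on endothelium, was higher at 15.7, 27.7 and 34.99 FPKM (difference 1.21). Of the 7 from 1 to below 10 FPKM, 4 were at least 1.5-fold lower and none higher. Over all genes in that range the shares were 4.82% lower and 7.23% higher. ITGB3, RAB27B and PF4, among the 4, reached 1 FPKM through CD105neg alone, so their part of the count carries no weight of its own. ITGA2B, the integrin chain CD41, stood at 7.84, 4.87 and 2.28 FPKM (difference -1.33), its partner ITGB3 at 1.84, 0.446 and 0.242 FPKM (difference -1.09) and the platelet chemokine gene PF4 at 1.77, 1.68 and 0.582 FPKM (difference -0.70), with 55.6% of ITGB3 and 14.3% of PF4 shared. Of 13 leukocyte and progenitor genes in that range, 5 were at least 1.5-fold lower and 1 was higher. CBFA2T3, 1 of the 5, reached 1 FPKM through CD105neg alone, and CSF2RB, the higher one, through CD105high alone. RAC2, a GTPase of blood cells, stood at 7.66, 4.69 and 2.55 FPKM (difference -1.19), VAV1, which activates such GTPases, at 8.84, 4.86 and 3.43 FPKM (difference -1.05), and SPN, the sialoprotein CD43, at 3.42, 2.55 and 1.19 FPKM (difference -0.91). PTPRC, the leukocyte antigen CD45, was at or near 0, at 0.0038, 0 and 0 FPKM. Higher instead were KIT, the stem cell factor receptor, at 6.76, 12.2 and 15.6 FPKM (difference 1.20), and CSF2RB, the shared chain of the receptors for interleukin-3 and GM-CSF, at 0.912, 1.72 and 2.17 FPKM (difference 0.83). LAPTM5, a lysosomal protein of blood cells, was the most abundant leukocyte marker, at 51.6, 44.1 and 35.5 FPKM (difference -0.43).

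**Figure D4:**
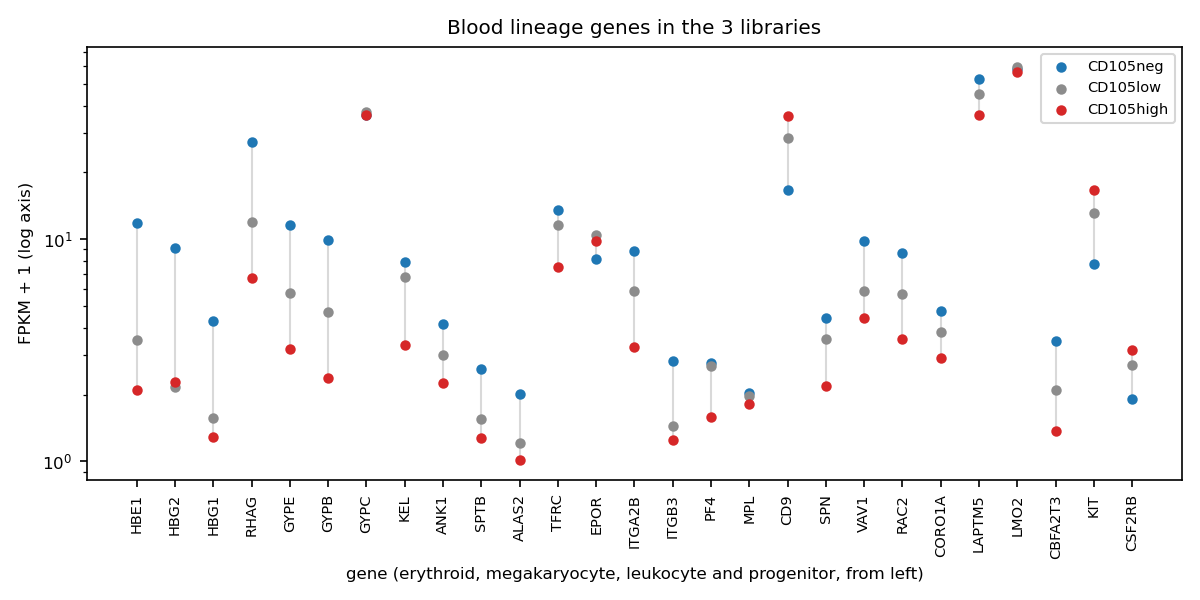
Level of 27 blood lineage genes in each library, as FPKM + 1 on a log axis, with CD105neg blue, CD105low grey and CD105high red. The globin genes and GYPE and GYPB are highest in CD105neg, GYPC and LMO2 are level, and CD9, KIT and CSF2RB are highest in CD105high.

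Cells other than endothelium and blood were looked for through the summed level of their markers. The 4 mesenchymal and mural markers summed to 23.9, 16.8 and 10.02 FPKM, most of it from COL3A1 and PDGFRB, with DCN at or near 0. PDGFRB stood at 9.05, 4.99 and 2.74 FPKM (difference -1.33). The 4 pluripotency and epithelial markers, of which 3 were analysed, summed to 11.8, 9.67 and 8.64 FPKM, with EPCAM at 5.46, 4.02 and 3.44 FPKM. KRT19, a keratin of simple epithelia, stood at 67.8, 46.1 and 30.2 FPKM (difference -1.04), and CDH11, a cadherin of mesenchyme, stood at 118, 78.6 and 53.01 FPKM (difference -1.03). The longer list of mesenchymal and mural genes had 6 of 12 counted members above the median gene and 6 below. Of the 12, 4 were at least 1.5-fold lower and 1 higher, beside 3.83% and 8.12% of all counted genes. Of the 9 members at 10 FPKM in both libraries, 2 were lower and 1 higher by as much. THY1, the surface protein CD90, stood at 33.6, 53.9 and 57.3 FPKM (difference 0.85), with 15.9% of its sampled sequence shared. The 4 endoderm markers summed to 6.37, 3.98 and 3.72 FPKM, the 4 neural markers to 9.23, 8.36 and 8.34 FPKM, and the 4 cardiac markers to 13.2, 14.4 and 8.84 FPKM. MYL4, an embryonic and atrial myosin light chain, stood at 10.9, 3.31 and 1.83 FPKM (difference -1.97), and passed the minimum through CD105neg alone. It was the lowest of 15 counted contractile and cardiac genes, of which 6 lay above the median gene and 9 below (median -0.08). Of these 15, 3 were at least 1.5-fold lower and none higher. By comparison, the 6 erythroid markers summed to 30.4, 7.92 and 4.002 FPKM, with 1, 2 and 2 of them at 0. The 4 megakaryocyte markers summed to 10.1, 7.09 and 3.38 FPKM, the 4 leukocyte markers to 55.2, 46.9 and 37.1 FPKM, and the 7 endothelial markers to 1232, 1639.6 and 1662 FPKM. Most of the leukocyte sum came from LAPTM5, at 51.6, 44.1 and 35.5 FPKM, with PTPRC at or near 0. The part of cells of these types in the differences above was not tested.

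Most genes of protein synthesis and energy metabolism lay below the median gene in CD105high, by less than 1.5-fold. Of 81 counted cytosolic ribosomal protein genes, 76 lay below the median gene and 5 above (median -0.39), while 4 were at least 1.5-fold lower and none higher. RPS6 stood at 887, 629 and 491 FPKM (difference -0.75), and 43 of the 81 genes share at least 10% of their sampled sequence. Summed, the 84 ribosomal protein genes took 43365, 35154 and 30489.5 FPKM. The respiratory chain list had 65 of 75 members below the median gene (median -0.25), with NDUFS8, of complex I, at 48.8, 41.1 and 27.5 FPKM (difference -0.70). Of 43 counted translation factor genes 38 lay below it, of which EIF3K stood at 125, 83.7 and 63.9 FPKM (difference -0.86). Of 21 glycolysis genes 18 lay below it, and HK1, a hexokinase, stood at 126, 92.2 and 67.2 FPKM (difference -0.79). The proteasome list had 29 of 32 members below, with PSMC2 at 59.8, 29.4 and 26.3 FPKM (difference -1.05). Transcript length went with the difference. The median difference went from -0.14 in the shortest of 10 equal length classes of counted genes to 0.16 in the longest, and 6 genes were 2-fold higher in the former against 34 in the latter. When each gene was centred on its own length class, the ribosomal median was -0.29 and the respiratory chain median -0.15.

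**Figure D5:**
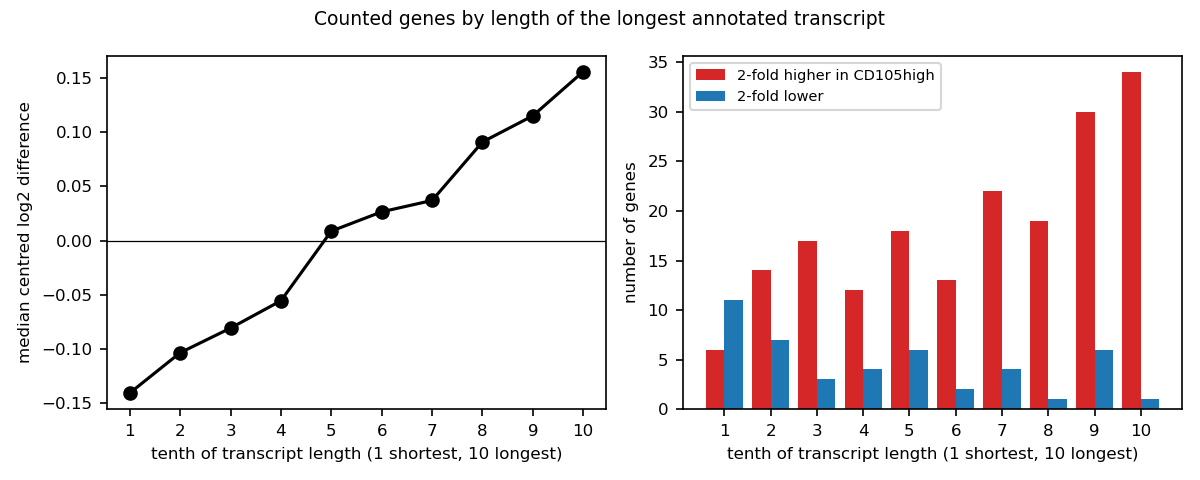
Counted genes in 10 equal classes of transcript length, from shortest to longest: the median centred log2 difference (left) and the number of genes at least 2-fold higher (red) or lower (blue) in CD105high (right). The median goes from -0.14 to 0.16, and the number of 2-fold higher genes from 6 to 34.

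Of 30 DNA replication genes, 27 lay below the median gene and 3 above (median -0.31), and 3 were at least 1.5-fold lower. RFC4, of the loader that places the sliding clamp on DNA, stood at 43.2, 21.6 and 18.2 FPKM (difference -1.10), MCM2, of the replicative helicase, at 45.7, 34.8 and 26.5 FPKM (difference -0.66) (26.7% shared) and GINS2 at 14.2, 9.67 and 7.43 FPKM (difference -0.75). The canonical histones, which are made while DNA is copied, had 36 of 60 counted members above the median gene and 24 below (median 0.05, or -0.05 without centring). All 30 genes of the mitosis list were counted, 18 above the median gene and 12 below (median 0.14). BIRC5, survivin, was the only one beyond 1.5-fold, at 17.3, 30.4 and 31.6 FPKM (difference 0.94). Cholesterol synthesis genes leaned the other way from glycolysis, with 18 of 22 above the median gene (median 0.23), led by SC5D at 38.04, 51.5 and 55.8 FPKM (difference 0.64). Without genes that share sequence the median was 0.12.

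Interferon-induced genes went both ways. Of 10 counted members 4 were higher by 2-fold or more and 2 lower by 1.5-fold or more, beside 3.19% and 3.83% of all counted genes. IFIT1, 1 of the 4, passed the minimum through CD105high alone, and IFITM2, 1 of the 2, through CD105neg alone. The median of 0.03 describes neither side. It was -0.07 without centring, -0.25 with 10 FPKM in both libraries and 1.12 without genes that share sequence. Of the 15 members from 1 to below 10 FPKM, 7 were at least 1.5-fold higher and none lower, beside 7.23% and 4.82% of all genes in that range. IFIT2 and IFI44, among the 7, reached 1 FPKM through CD105high alone, so their part of the count carries no weight of its own. IFIT1, which binds foreign RNA, stood at 8.57, 21.2 and 36.7 FPKM (difference 2.08), IFI16, a DNA sensor, at 71.4, 146 and 179 FPKM (difference 1.42) and ISG15, a ubiquitin-like modifier, at 71.2, 111 and 156 FPKM (difference 1.22). Below the minimum, IFIT2 stood at 0.579, 2.02 and 3.17 FPKM (difference 1.502) and IFIT3 at 1.91, 4.03 and 6.57 FPKM (difference 1.48). In the opposite direction, LY6E stood at 20.4, 13.8 and 10.9 FPKM (difference -0.75) and IFITM2, which blocks virus entry, at 16.1, 11.1 and 8.27 FPKM (difference -0.78) with 13.6% shared. B2M, the light chain of MHC class I, was highest in CD105low, at 12.2, 57.03 and 21.1 FPKM (difference 0.84), whereas the heavy chain gene HLA-E stood at 48.6, 62.2 and 69.5 FPKM (difference 0.61). Among stress genes of cell dissociation, HSPA2 stood alone at 0.977, 12.4 and 12.3 FPKM (difference 2.85), and DUSP1, an early response phosphatase gene, stood at 32.6, 35.95 and 48.5 FPKM (difference 0.66). Within the BEX family, BEX1 stood at 185, 84.3 and 41.5 FPKM (difference -2.02), while BEX3 stood at 131, 137 and 136 FPKM (difference 0.16). Potassium channels included one gene near each end, KCNJ2 and KCNH2, the channel hERG, at 13.5, 6.5 and 2.66 FPKM (difference -1.88).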

How the data were processed

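Bulk RNA-seq was made from 2 µg of total RNA per sorted group, with a kit that does not mark strand, per the labels' protocols. The authors deposited 1 table of gene levels per library; the headers name no unit, and the values were treated as FPKM, normalized by transcript length and depth by the authors. TPM cannot be told apart from FPKM by the headers. RSEM, BWA, Bowtie and hg19 are listed in the submitters' processing notes, with versions and roles not given in the sources used here. Summed levels were 265618 to 289229 FPKM and 5298 to 5569 genes reached 10 FPKM in a library. With 1 library per group and no read totals, neither replicate nor counting error could be computed.

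Levels were compared in Python 3.11.15 with pandas 2.3.3 and numpy 2.4.6, and plotted with matplotlib 3.10.9, as log2(value + 1) with a pseudocount of 1, a minimum of 10 in either library and centring on the median. The computation was tested on simulated data. Transcript lengths, and shared sequence (the share of 50-base pieces, taken every 40 bases of a gene's longest transcript, that also occur in other genes on either strand; limit 10%), came from GENCODE 29, which matched 18312 of 18345 genes. The 23 symbols stored as dates were not named. RefSeq promoter entries matched 142 of the 185 higher, 31 of the 45 lower and 4841 of the 5801 counted genes. The 41 gene lists and the comparison were chosen with earlier results of these data known. Genes were named by rule: given markers and gate genes; the 30 highest and 30 lowest counted genes, without clone-named, small RNA, read-through and mitochondrial genes; in each list, up to 4 counted members farthest from the median gene; the cell type markers; and, for blood, VEGF, TGF-beta, Notch and other cell type lists, members under 10 FPKM. Chosen after their values were seen were ACVR2B, ACVRL1, BEX3, BMPER, BMPR1A, CLEC14A, EDNRA, FABP4, FCN1, FCN2, GIMAP5, GIMAP6, GJA5, GPIHBP1, GYPC, IFI44, IFIT2, IFIT3, IFITM2, JAG1, LAMA5, LAMB1, LFNG, LMO2, LY6E, MFNG, NOTCH1, NRP2, PGF, STAB1, TGFBR2, THBD, TMEM88, VEGFD and VWF. Some genes that the rule names are not reported here. Alternatives covered the pseudocount, the minimum, centring, scaling to the same sum, classes of level and of length, and genes that share sequence.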

Additional observations from a re-analysis of the deposited data

How the results depend on the processing

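The counts depended on the minimum and the pseudocount. The 185 genes at least 2-fold higher were 110 with a pseudocount of 5, 280 with a minimum of 1, 120 with a minimum of 20 and 82 with 10 FPKM in both libraries. The 45 at least 2-fold lower were 21, 103, 25 and 23 under the same settings and 146 with no minimum. The 471 at least 1.5-fold higher were 842 with a minimum of 1, 301 with a minimum of 20 and 275 with 10 FPKM in both libraries. The 222 at least 1.5-fold lower were 145 with a pseudocount of 5, 509 with a minimum of 1, 126 with a minimum of 20, 766 with no minimum, 138 with 10 FPKM in both libraries and 378 without centring. The minimum in both libraries was chosen after seeing the data. Over all alternatives the endothelial median ran from 0.70 to 1.11, the erythroid median from -0.94 to -0.24 (the latter from 2 genes) and the ribosomal median from -0.49 to -0.29. With no minimum the TGF-beta and BMP median dropped from 0.51 to 0.03, the VEGF median from 0.75 to 0.27, the Notch median from 1.03 to 0.62, and the vessel matrix median turned from 0.24 to -0.01. No paired analysis was possible because each group had 1 library. That, with the unknown number of reads, limits every difference to these libraries.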

Other observations

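The largest differences on the linear scale included GPX1, FCN3, KDR, RPS6 and HIST1H2AM, described above, and other abundant genes, named here after their values were seen. In the order CD105neg, CD105low, CD105high, TMSB10, a thymosin that binds actin monomers and the most abundant gene of each library, stood at 2262, 2762 and 2993 FPKM. Its relative TMSB4X stood at 1175, 1382 and 1405 FPKM. HAPLN1, which links hyaluronan to proteoglycans, stood at 561, 790.4 and 781 FPKM, a centred log2 difference of 0.58. Downwards, RPS27, a ribosomal protein gene with 20% of its sampled sequence shared, stood at 1803, 1376 and 1239 FPKM. EEF1A1, the elongation factor that brings transfer RNA to the ribosome, stood at 2204, 1949.9 and 1669 FPKM, with 29.1% shared. Histone genes lay at both ends: HIST1H3J, with 66.7% shared, stood at 315, 333 and 539 FPKM, and HIST1H2AM at 359, 390.5 and 45.2 FPKM.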
